A study of Mus musculus with 2 samples.

Results

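Dcn, Rgs5, Timp3, Adamts18, Htra1, Sparc, Smoc2, Mgp, Emp3 and Ncam1 are 10 genes whose transcripts are often met in the connective tissue and vessel wall of an organ, and here they were followed cell by cell in cultures of bladder epithelium. They are 10 of the 31053 gene identifiers in the matrices, and all 10 were found by symbol in both libraries. The list was chosen from the levels of these genes in the same 2 libraries, so the levels and the contrast between the libraries describe the choice and test nothing. What the choice did not use is which cells held the transcripts and whether those cells also held the keratin transcripts Krt5 and Krt14 or the epithelial adhesion transcript Epcam.

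The material was organoids, small hollow or solid structures grown in gel, from the normal urothelium of wild-type C57BL/6 mice aged 8 to 10 weeks. Proliferative organoids (P) were kept in complete medium with WNT3A, RSPO1, EGF, Noggin and LY2157299, a TGF-β receptor inhibitor, and differentiated organoids (D) were first grown in that medium and then for a week without these additives. Each group held 1 library, made with the 10x 3′ kit from unsorted cultures, so stromal cells had not been removed by a gate. The cells used here had more than 800 genes detected and no more than 12% mitochondrial transcripts, 6818 in P and 4896 in D. With 1 library a group no difference has a replicate check, no p-value was computed, and every interval is a 95% interval that covers counting error only.

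The median kept cell held 3405.5 unique molecular identifiers (UMIs, each standing for 1 captured transcript) in P and 3227.5 in D. Shares of cells were therefore compared after each cell was thinned at random to 2100 UMIs, which left 6638 P and 4417 D cells and left out 180 and 479 shallower ones. The libraries shared 10 barcodes, of which 8 were kept in P and 7 in D, and 2 and 4 of these held a transcript of the list other than Emp3. The gene median stood 0.42 higher in D than in P on the log2 scale over 8939 genes, and ratios below are given without subtracting it.

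As background, connective tissue is built by fibroblasts, which secrete collagens and small proteoglycans such as decorin, while pericytes and smooth muscle wrap the vessels. The urothelium sits on a basement membrane, with basal cells that carry Krt5, some of them with Krt14, below intermediate cells and luminal umbrella cells, which make uroplakins. Basal epithelial cells elsewhere, such as those of skin, can also secrete matrix proteins and the enzymes that cut them.

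For 6 of the 10 genes a promoter window of 300 bases, 250 before to 50 after the start, was held in RefSeq for GRCm38.p6. The 3 of these genes with the largest D over P ratios are shown because their transcripts were all but missing from P. Capitals mark a GC box (GGGCGG), the letters CAGAC of a SMAD element, a TATA box (TATAAA), an AP-1 site (TGANTCA) or a TEAD site (GGAATG), searched on both strands, with no overlap between the matches shown. Rgs5 lies at chr1:169655251-169655550 on the plus strand, Timp3 at chr10:86300162-86300461 on the plus strand and Adamts18 at chr8:113848790-113849089 on the minus strand.
Rgs5: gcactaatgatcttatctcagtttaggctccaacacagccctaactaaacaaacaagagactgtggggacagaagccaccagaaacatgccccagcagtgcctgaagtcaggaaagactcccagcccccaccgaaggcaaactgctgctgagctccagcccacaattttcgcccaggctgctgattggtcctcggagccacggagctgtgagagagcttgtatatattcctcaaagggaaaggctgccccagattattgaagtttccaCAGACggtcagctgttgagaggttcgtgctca
Timp3: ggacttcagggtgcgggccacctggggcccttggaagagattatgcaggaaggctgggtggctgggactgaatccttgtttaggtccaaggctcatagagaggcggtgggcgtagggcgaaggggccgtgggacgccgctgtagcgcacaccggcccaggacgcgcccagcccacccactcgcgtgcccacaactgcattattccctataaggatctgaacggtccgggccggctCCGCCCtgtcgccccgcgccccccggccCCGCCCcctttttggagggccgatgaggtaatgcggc
Adamts18: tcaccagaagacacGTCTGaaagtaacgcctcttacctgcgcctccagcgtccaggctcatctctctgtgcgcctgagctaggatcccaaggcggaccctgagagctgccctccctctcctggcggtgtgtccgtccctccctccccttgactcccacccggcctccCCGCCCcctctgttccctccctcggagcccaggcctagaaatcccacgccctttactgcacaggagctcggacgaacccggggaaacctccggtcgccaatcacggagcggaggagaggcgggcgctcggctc
The Rgs5 window held 1 CAGAC match, the Timp3 window 2 GC boxes, and the Adamts18 window 1 of each. GC boxes stood in 35.7% and CAGAC in 49.6% of all 32851 promoter windows of the same length, so these matches are common. No AP-1 or TEAD letters stood in any of the 7 windows of the 6 genes, against 7.81% and 14.7% of all windows, and TATA letters stood in 1 of the 7, against 13.6%. A match is a description of letters and not a bound site.

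Among the secreted matrix proteins, Dcn encodes decorin, a small leucine-rich proteoglycan that binds collagen fibrils (chromosome 10, 97479609 to 97518143, GRCm38). It had 40 UMIs in P and 1234 in D, or 1.5 and 60.8 counts per 1000000 UMIs (CPM), a log2 ratio of 5.34 (4.89 to 5.83). Sparc encodes osteonectin, a collagen-binding glycoprotein of basement membrane and bone (chromosome 11, 55394500 to 55423183). It had 102 UMIs in P and 730 in D, a log2 ratio of 3.23 (2.93 to 3.55). Both genes were low but present in proliferative organoids.

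Smoc2 encodes a calcium-binding matrix protein of the SPARC family (chromosome 17, 14279506 to 14404790) and was the least shifted of the genes past 2-fold. It had 280 UMIs in P and 489 in D, a log2 ratio of 1.20 (0.98 to 1.42), and fell inside 2-fold with the ratio at 0.86 when mitochondrial and ribosomal protein genes were taken out of the totals and at 0.78 when the gene median was set to 0. Mgp encodes matrix Gla protein, an inhibitor of calcification (chromosome 6, 136872435 to 136875823), and ran the other way. It had 116 UMIs in 64 P cells and 0 UMIs in the 4896 D cells. A floor of 3 D UMIs puts P 29.4-fold higher, with a counting bound of 23.6-fold. The interval for the share of D cells with an Mgp UMI reaches 0.0753%.

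Of the enzymes and inhibitors of matrix turnover, Timp3 encodes a metalloproteinase inhibitor that binds to the matrix (chromosome 10, 86300372 to 86349506). It had 4 UMIs in P and 902 in D, a log2 ratio of 8.21 (6.85 to 10.1). Adamts18 encodes a secreted metalloproteinase (chromosome 8, 113697126 to 113848738) and had 1 UMI in P and 586 in D, a log2 ratio of 9.59 (7.1 to 14.9). These are the 2 genes of the list with the largest measured ratios, and both rest on a handful of UMIs in P.

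Htra1 encodes a secreted serine protease (chromosome 7, 130936111 to 130985660) and was readily detected in both cultures. It had 1385 UMIs in P and 2046 in D, a log2 ratio of 0.96 (0.86 to 1.06), which put it just inside 2-fold, as Smoc2 was just outside. The ratio ran from 0.54 with the gene median set to 0 to 1.03 with all barcodes, so its side of the threshold depended on the scaling and the cells used.

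Of the membrane and signalling genes, Rgs5 encodes a regulator of G-protein signalling that is widely used as a pericyte marker (chromosome 1, 169655501 to 169695813). It had 0 UMIs in the 6818 P cells and 227 UMIs in 125 D cells. With 3 UMIs as the floor for P the D level was 99.4-fold higher, with a counting bound of 80.2-fold. Ncam1 encodes the neural cell adhesion molecule (chromosome 9, 49502136 to 49798925), with 93 UMIs in P and 919 in D, a log2 ratio of 3.70 (3.39 to 4.02). Emp3 encodes an epithelial membrane protein of the PMP22 family (chromosome 7, 45918023 to 45921404), with 41 UMIs in P and 446 in D, a log2 ratio of 3.84 (3.37 to 4.34). For Timp3, Htra1, Smoc2 and Ncam1 the annotation holds a gene on the opposite strand at the same place, and the other 6 overlap none.

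In all, 8 of the 10 genes were at least 2-fold higher in D, 1 was at least 2-fold higher in P and Htra1 was neither. Among 10719 genes whose UMIs summed to 100 or more, 13.5% passed 2-fold toward D and 4.73% toward P, and since the list was picked on this contrast nothing is read from the comparison. With Rgs5 and Mgp set to 3 UMIs where they had none, the median log2 ratio of the 10 genes was 3.77, beside 0.41 for those 10719 genes.

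**Figure D1:**
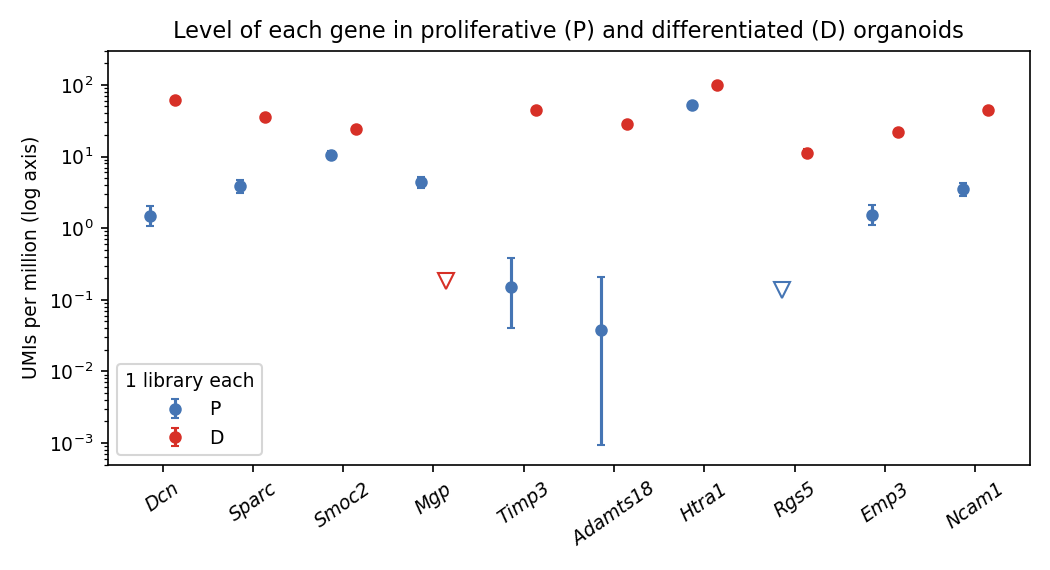
Level of each gene in the proliferative (P, blue) and differentiated (D, red) library, in CPM over kept cells on a log axis, with 95% Poisson intervals. Open triangles mark the upper bound where a library held 0 UMIs. Dcn, Sparc, Timp3, Adamts18, Rgs5, Emp3 and Ncam1 stood far higher in D, Mgp had UMIs in kept cells of P alone, and the P and D levels of Htra1 and of Smoc2 lay closest together.

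Single cells separate how many cells held a transcript from how much each held. At 2100 UMIs a cell, 28.4% (27.1 to 29.8) of D cells and 14.1% (13.3 to 15.0) of P cells held at least 1 UMI of the 10 genes. Most of the P share was Htra1, which was in 10.0% of P cells, with Smoc2 in 2.49% and each of the other 8 genes in under 1%. In D, Htra1 was in 13.2% of cells, Dcn in 9.03%, Ncam1 in 7.81%, Timp3 in 6.996%, Sparc in 6.04%, Adamts18 in 5.12%, Smoc2 in 4.94%, Emp3 in 4.08% and Rgs5 in 1.40%.

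For Htra1 both the share of cells and the amount in each were higher in D. The share went from 10.0% (9.31 to 10.8) in P to 13.2% (12.2 to 14.3) in D, while the mean in a cell that held it went from 1.22 to 1.81 UMIs. Of the D cells with Htra1, 237 of 584 held at least 2 UMIs, against 109 of 665 in P. No single cell carried the total of a gene: the highest count in 1 cell was 17 UMIs for Dcn, 16 for Rgs5 and 15 for Htra1 in D, and 13 for Mgp in P.

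The cells that held these transcripts also held epithelial ones. Emp3 was left out of the union for this question because it is expressed in many cell types, and a cell with at least 1 UMI of the remaining 9 genes is called a carrier below. Krt5, Krt14 or Epcam was found in 1219 of 1220 D carriers, or 99.9% (99.5 to 100), and in 917 of 918 P carriers, or 99.9% (99.4 to 100). Among non-carriers the shares were 98.8% in D and 99.3% in P, so at this depth nearly every cell of either library held at least 1 of the 3 transcripts.

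Of the 3, Krt14 differed most between carriers and other cells. It was found in 96.0% (94.7 to 97.0) of D carriers and 60.8% (59.1 to 62.5) of the other D cells, and in 94.8% (93.1 to 96.1) of P carriers and 57.1% (55.8 to 58.4) of the other P cells. Krt5, the keratin that marks basal and many intermediate cells, was found in 99.5% of D carriers and 95.2% of other D cells. The Epcam intervals overlapped in D, at 61.6% (58.8 to 64.4) and 61.9% (60.2 to 63.6), and in P it was found in fewer carriers, 39.1% (35.9 to 42.4) against 47.1% (45.8 to 48.4).

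Other basal and luminal transcripts divided along the same line. Trp63, the transcription factor of basal epithelial cells, was found in 21.4% of D carriers and 11.2% of other D cells. Krt8, a keratin of intermediate and luminal cells, was found in 61.2% of D carriers and 82.6% of the others. A uroplakin transcript, of 5 uroplakin genes counted together, was found in 23.2% (20.9 to 25.7) of D carriers and 65.2% (63.5 to 66.8) of the others.

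**Figure D2:**
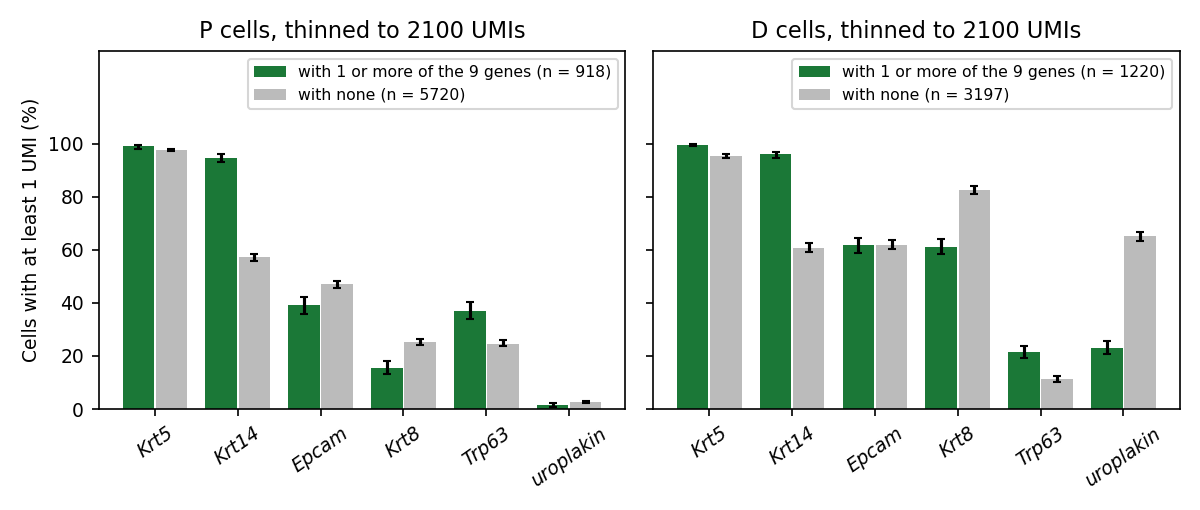
Share of cells, each thinned to 2100 UMIs, with at least 1 UMI of the named transcript, for carriers of 1 or more of the 9 genes (green) and cells with none (grey), in P (left) and D (right), with 95% binomial intervals. Krt14 was in 96.0% of D carriers against 60.8% of the others and in 94.8% of P carriers against 57.1%, uroplakins were in 23.2% of D carriers against 65.2%, and the Epcam intervals overlapped in D at 61.6% and 61.9%.

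The same held gene by gene. In D the share of cells with Krt14 ran from 91.9% (82.2 to 97.3) of the 62 cells with Rgs5 to 98.6% of the 584 cells with Htra1 and of the 345 cells with Ncam1. All 309 cells with Timp3, all 226 with Adamts18, all 345 with Ncam1 and all 62 with Rgs5 held a Krt5 UMI. In P the genes with few cells gave the same picture, with Krt14 in 25 of 25 cells with Dcn, 53 of 53 with Sparc and 46 of 48 with Mgp.

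Cells with Rgs5 held Epcam more often than cells without it. Epcam was found in 51 of 62 D cells with Rgs5, or 82.3% (70.5 to 90.8), against 61.5% (60.1 to 63.0) of D cells without it. Over all UMIs, Epcam was in 115 of 125 D cells with Rgs5, which were deeper than D cells without it, with medians of 3611 and 3220 UMIs. By amount Epcam stood at 552 CPM in D cells with Rgs5 and 468 in those without. All 62 cells held at least 1 of Krt5, Krt14 and Epcam.

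No kept cell lacked epithelial transcripts. Over a panel of 18 epithelial genes (keratins, Epcam, Cdh1, claudins, Trp63, Perp and Sfn), 0 of 6818 P and 0 of 4896 D cells had 0 UMIs. The intervals for a share of 0 in that many cells reach 0.0541% in P and 0.0753% in D. The lowest panel count was 8 in P and 17 in D. Among the 1766 D carriers counted at full depth the lowest panel count was 18 and the median 86. Krt5, Krt14 and Epcam were all missing from 9 P and 14 D cells at full depth, of which 0 and 1 were carriers. Free RNA from broken cells can add a keratin UMI to any droplet, so amounts are given too. Krt14 made up 7290 CPM in D carriers and 1680 in the other D cells, with a median of 27 Krt14 UMIs in a carrier.

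Several defining markers of the stromal cells that usually make these proteins were at or near 0, while Notch3, Mcam and Acta2 were not. The 10 fibroblast markers summed to 16 UMIs in 14 P cells and 37 UMIs in 36 D cells, or 0.600 and 1.82 CPM, with Col1a2, Thy1 and Mfap5 at 0 in both. Pdgfrb, the receptor that defines pericytes, had a single UMI (1, in P), Kcnj8 and Higd1b had 0 in both, and Myh11, a smooth muscle myosin, had 1 and 0. The sum of the pericyte and smooth muscle list, 771 UMIs in P and 856 in D, was mostly Notch3 (715 and 772). Mcam, an adhesion molecule of pericytes and other cells, had 48 P and 78 D UMIs, a log2 ratio of 1.09 that fell to 0.67 with the gene median set to 0, and stood at 14.1 CPM in D cells with 3 or more of the 9 genes against 1.63 in those with none. Notch3 went the other way, at 14.1 CPM in D cells with 3 or more of the 9 genes against 45.1 in those with none. The part of Mcam and Notch3 in the pattern was not tested. For Vim, the mesenchymal intermediate filament, 8 P UMIs and 3 D UMIs were counted. Acta2, the smooth muscle actin gene listed with Vim, had 28 P and 837 D UMIs. It stood at 196 CPM in D cells with 3 or more of the 9 genes, against 4.7 in those with none. Tagln, of the same list, had 8 and 35 UMIs, and stood at 8.70 against 0.466 CPM in those cells. The part of Acta2 and Tagln in the pattern was not tested.

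The few collagen UMIs lay in cells with epithelial transcripts. Col1a1 and Col3a1, chains of fibrillar collagen singled out after their values were seen, had 0 UMIs in P and together 29 UMIs in 28 D cells, with at most 2 in a cell. Of those 28 cells, 28 held Krt5, 27 held Krt14, 21 were carriers and 17 held 3 or more of the 9 genes. The lowest epithelial panel count among them was 33. Of all 4896 kept D cells at full depth, 92 lacked Krt5, 36.1% were carriers and 12.7% held 3 or more of the 9 genes. Col3a1 stood at 4.35 CPM in D cells with 3 or more, against 0.311 in those with none, and Col1a1 at 2.17 against 0.233. The part of the collagen cells in the pattern was not tested. Leaving out every cell with a UMI of a listed fibroblast, pericyte or smooth muscle marker left the median log2 ratio of the 10 genes at 3.8. The share of D carriers with Krt14 was then 94.9%. Since the genes were chosen on the contrast between P and D, that median describes the choice. The marker UMIs were mostly those of Notch3, found in 677 D cells, and Acta2 was not on those lists. This cut therefore cannot show whether stromal cells held the transcripts.

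Defining markers of other lineages were also at or near 0. Ptprc, the pan-leukocyte antigen, had 1 UMI in P and 2 in D, and the endothelial genes Cdh5, Kdr, Tek and Emcn and the glial gene Sox10 had 0 in both. The endothelial list summed to 148 UMIs in P and 69 in D, nearly all of Pecam1 and Egfl7, and the Schwann and neural list to 70 and 78. Of the leukocyte list, which summed to 572 and 546 UMIs, Cd68 gave 545 in P and Laptm5 gave 400 in D. Of the mesothelial list Msln and Upk3b, which urothelium also expresses, gave all but 2 UMIs in P and 1 in D. Msln was not near 0, with 1969 UMIs in P and 3778 in D. In D cells with 3 or more of the 9 genes it stood at 451 CPM, against 113 in those with none. Upk3b went the other way, at 1.81 against 19.0.

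Which cells were carriers was also read from clusters made within each library with the 10 genes taken out of the clustering features, 4 in P and 3 in D. D cluster 1, with 1291 cells led by Acta2 and Cav1, had Htra1, Sparc, Smoc2, Ncam1 and Emp3 among its 10 leading genes though none was a feature. It held 81.4% (80.4 to 82.3) of the D UMIs of the 9 genes, at 1433 CPM against 81.8 in the rest of D. There 86.2% of thinned cells were carriers, and all 1020 held Krt14. Of the basal markers 6 of 7, and of the proliferation markers 12 of 12, were higher there than in the rest of D, and the part of cycling in the levels was not tested. D cluster 0, with 2756 cells led by Krt1, had 11.4% carriers, and D cluster 2, with 849 cells led by Ppbp and holding the uroplakins (luminal-like, with 6 of 6 luminal markers higher than in the rest), had 5.77%.

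Cluster 2 was the D cluster with the smallest share of carriers, and its share for each gene is set beside that of cluster 1. The part of free RNA in these shares was not tested. Cluster 2 cells were deeper, with a median of 4636 UMIs against 2671 in cluster 1. After thinning Dcn was in 1.08% of cluster 2 cells against 29.2% in cluster 1, and Ncam1 in 0.721% against 29.3%. Timp3 was in 0.481% against 25.1%, and Adamts18 in 0.601% against 16.4%. Htra1 was in 1.80% of cluster 2 and 49.4% of cluster 1, Sparc in 0.841% and 22.9%, Smoc2 in 0.962% and 18.6%, Emp3 in 0.721% and 15.1%, and Rgs5 in 0.240% and 4.22%. Each of these 9 genes was thus far above its luminal-like level in cluster 1.

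The genes were not equally confined. Htra1 had 87.9% of its D UMIs in cluster 1, a level 29.1-fold (25.5 to 33.4) that of the rest of D, and Sparc, Smoc2, Ncam1 and Emp3 were 20.5-fold to 23.6-fold higher there. Timp3 was 16.8-fold (14.2 to 19.9), Dcn 11.0-fold (9.68 to 12.5), Adamts18 9.20-fold (7.69 to 11.0) and Rgs5 8.30-fold (6.25 to 11.1) higher there. Dcn, Rgs5 and Adamts18 accordingly kept 23.8%, 29.96% and 26.8% of their UMIs in cluster 0, against 9.09% for Htra1. Since clusters were made from the same cells, these folds are a description.

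In P, too, the transcripts lay mostly in Krt14-rich cells. P cluster 0, with 2570 cells led by Nbl1, Dll1 and Dlk2 in which Krt14 was found in 98.4% of thinned cells, had 75.3% of the UMIs of the 9 genes and 28.8% carriers, and P cluster 3, the mitotic cells led by Hmmr and Nusap1, had 27.1%. P cluster 1, led by Sprr2f and Psca, had 2.11%. Mgp had 93 of its 116 UMIs in cluster 0 and 17 in cluster 3, where its levels were 11.9 (9.60 to 14.6) and 10.5 (6.14 to 16.9) CPM.

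**Figure D3:**
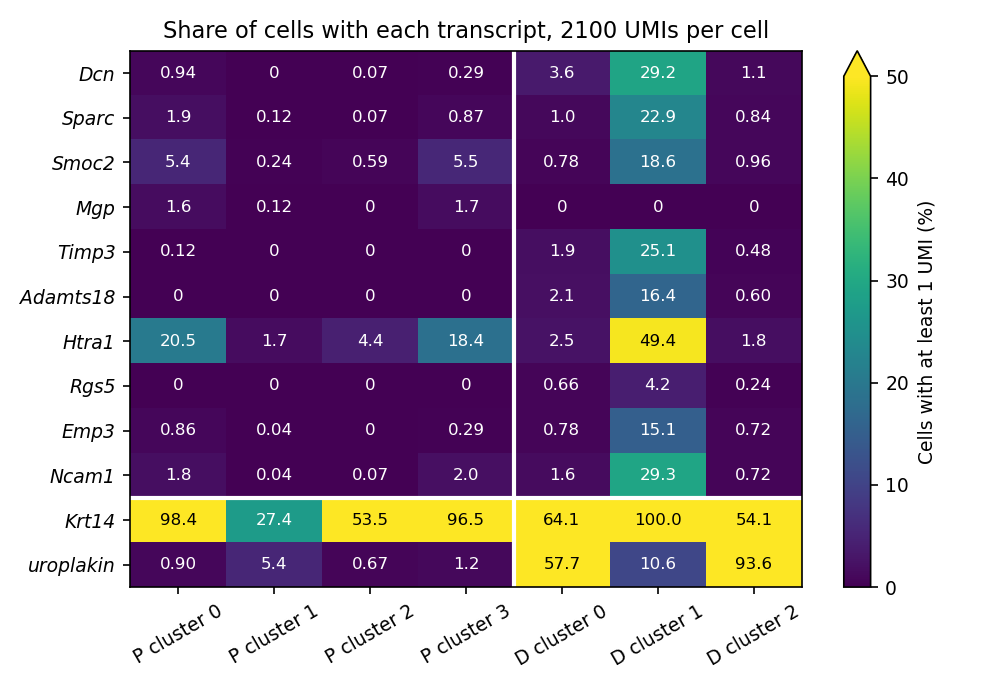
Percent of cells with at least 1 UMI of each gene (rows) in each cluster (columns), cells thinned to 2100 UMIs, with Krt14 and the 5 uroplakin genes below for orientation. The colour scale stops at 50%. Of the 10 genes all but Mgp are highest in D cluster 1, where Htra1 reached 49.4%, while Mgp is found in P clusters 0, 1 and 3 and in no D cluster.

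Counts were also made among Krt14-positive cells, which hold nearly all the carriers. Since the genes were chosen on the contrast between P and D, the values are a description. Among thinned cells with Krt14, carriers were 21.03% (19.8 to 22.3) of 4137 in P and 37.6% (35.9 to 39.3) of 3114 in D. Dcn went from 0.604% to 12.4%, Ncam1 from 1.26% to 10.9%, Timp3 from 0.0725% to 9.73%, and Sparc from 1.28% to 8.41%. Adamts18 and Rgs5 were in 0 of the 4137 P cells and in 7.06% and 1.83% of the D cells. The smallest ratio of shares was that of Htra1, from 15.2% (14.1 to 16.3) to 18.5% (17.2 to 19.9), and Mgp went from 1.11% to 0. In cells without a Krt14 UMI carriers were 1.92% in P and 3.76% in D.

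**Figure D4:**
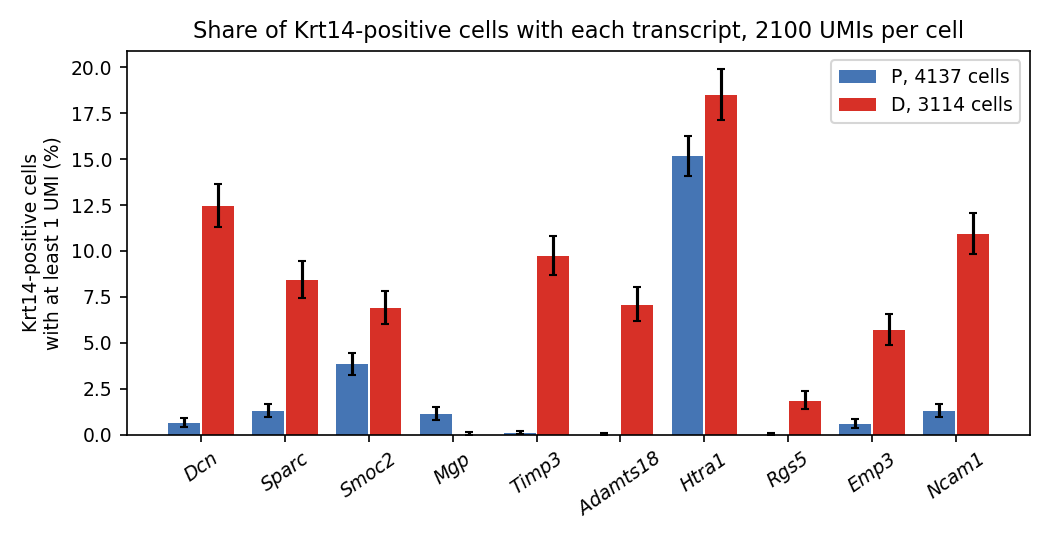
Percent of Krt14-positive cells with at least 1 UMI of each gene in P (blue, 4137 cells) and D (red, 3114 cells), thinned to 2100 UMIs per cell, with 95% binomial intervals. Each gene but Mgp was found in a larger share of the D cells, such as 15.2% against 18.5% for Htra1 and 0.604% against 12.4% for Dcn, in a contrast on which the genes were chosen.

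In D the genes were found together. At full depth 3130 D cells held none of the 9 genes, 745 held 1, 398 held 2, 288 held 3, 191 held 4 and 144 held 5 or more, with 8 in each of 3 cells. In P, 1169 cells held 1, 156 held 2, 17 held 3 and 1 held 4. After thinning, 7.58% (6.82 to 8.40) of D cells and 0.136% (0.0620 to 0.257) of P cells held at least 3. Since the genes were chosen on the contrast between P and D, and several were all but missing from P, that difference describes the choice. Having 1 of these genes went with having another: for each of the 72 ordered pairs in D, taken here over the 9 genes found in D (Emp3 included and Mgp left out), the second gene was in a larger share of the cells with the first than of the cells without it, with intervals that did not meet.

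Htra1 and Sparc had the highest correlation of the 36 pairs. Of D cells with Sparc, 52.8% (46.6 to 58.9) held Htra1, against 10.7% (9.75 to 11.6) of those without Sparc, and the correlation of their log-normalized values over 4896 cells was 0.36. Of cells with Smoc2, 56.4% (49.6 to 63.1) held Htra1, against 11.0% of those without. Of cells with Ncam1, 33.0% (28.1 to 38.3) held Timp3, against 4.79% of those without. Rgs5 and Emp3 had the lowest correlation, 0.03. The correlations of the 36 pairs had a median of 0.19, and the 28 pairs of P one of 0.01, where 13 of 56 ordered pairs had intervals that did not meet. The pairs of P and D were not of the same genes, and the genes were chosen on the contrast between P and D. Nothing is therefore read from the medians side by side. The points are cells of 1 library, and their shared source and sparse counts mean that these values describe that library only.

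Krt14 was higher, and Krt8 and the uroplakins lower, in D cells with more of the genes. Over thinned D cells Krt14 stood at 2092 CPM where none of the 9 genes was found, at 8139 where 1 was found and between 10584 and 11082 where 2 or more were. Krt5 and Epcam moved little, from 3766 and 482 with none to 4048 and 489 with 3 or more, and Krt8 went from 1448 to 522. The uroplakins stood at 1426 CPM with none, 453 with 1 and 91.0 with 3 or more. Acta2, the smooth muscle actin gene that myoepithelial cells also use, went from 4.77 to 78.0 and 215, and was found in 0.907%, 5.63% and 16.4% of these cells, so most cells with 3 or more genes held no Acta2 UMI at this depth. The cells with 3 or more genes had a lower median mitochondrial share than those with none, 5.51% against 7.15%, and fewer UMIs before thinning, a median of 2950 against 3468; the part of these in the pattern was not tested.

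**Figure D5:**
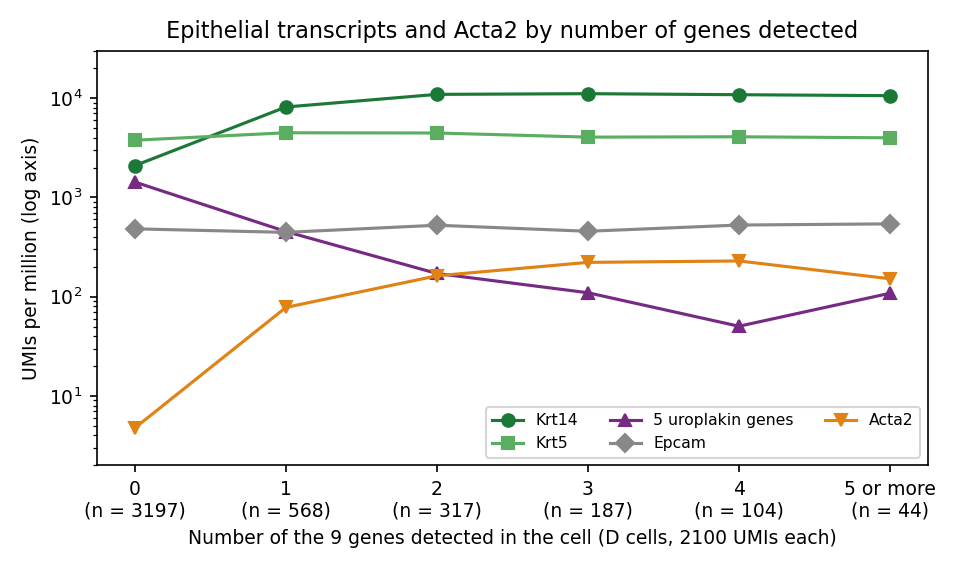
Level of Krt14, Krt5, Epcam, the 5 uroplakin genes together and Acta2, in CPM on a log axis, in D cells thinned to 2100 UMIs and grouped by how many of the 9 genes they held. Krt14 and Acta2 are higher and the uroplakins lower from the first gene on, while Krt5 and Epcam stay level.

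For each of the genes the 3 others with the highest correlation over D cells were taken. Krt14 had the highest correlation with Dcn (0.35, before the hemidesmosome collagen Col17a1 at 0.29), Ncam1 (0.35), Emp3 (0.27) and Adamts18 (0.26), among 7820 genes compared over 4896 cells. Col7a1, the collagen of anchoring fibrils, was highest for Timp3 (0.32), and Cald1, a caldesmon that binds actin, was highest for Htra1 (0.51) and Sparc (0.35). Col18a1, a basement membrane collagen, was highest for Smoc2 (0.32). Other genes among the first 3 were Ctsl for Dcn (0.28), Rflnb for Adamts18 (0.22), Stk17b for Sparc (0.33) and Smoc2 (0.29), and Igfbp5 for Timp3 (0.28). For Rgs5 the highest values, 0.15 with each of Igfbp5, Sox11 and Nuak1, and for Mgp in P, 0.09 with Tmem176b, are too weak in sparse counts to be read. The most negative partner was Gsta4, a glutathione transferase, or Krt19 for each of the 9 genes in D.

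Cells with several of these genes differed from cells with none in other transcripts too. The 623 D cells with 3 or more of the 9 genes were set beside the 3130 with none, and the largest ratios among 7005 genes outside the list were those of Acta2, Fn1, Pltp, Col18a1, Prss23, Col8a1, Igfbp5, Col7a1, Wnt10a and Nuak1, of which Fn1, Col18a1, Col8a1 and Col7a1 encode matrix proteins. Acta2 stood at 196 against 4.67 CPM, a log2 ratio of 5.40 (5.01 to 5.80), though 16.1% of the 623 cells held an Acta2 UMI, and Fn1, which encodes fibronectin, at 89.5 against 3.499. Wnt10a, a WNT ligand of basal epithelium, stood at 145 against 7.62. The lowest were Ppbp, Ltf, Prss27 and Upk3a, the last at 40.9 against 463.

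Some of these companions were not themselves 2-fold higher in D. Col18a1 had a D over P log2 ratio of -0.08, Pltp one of 0.34 and Wnt10a one of 0.38, beside 0.41 for the median gene, while Acta2 (5.30), Fn1 (4.67), Igfbp5 (4.14) and Nuak1 (3.95) were well past it.

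The relatives of the 10 genes were counted where their UMIs summed to 20 or more. Of the 12904 such genes in the matrices 15.5% passed 2-fold toward D and 6.89% toward P, with a median log2 ratio of 0.39, and the lists below were chosen with these data known. Family counts and medians below include any of the 10 genes, which were chosen on this contrast. Without them 5 of 7 Adamts proteases, 2 of 3 SPARC family genes and 4 of 5 neural adhesion genes were higher in D. So were 1 of 1 proteoglycan, 1 of 3 metalloproteinase inhibitors and 1 of 2 R4 RGS proteins. For the HtrA, Gla and PMP22 families the count without them was 0. Of the small leucine-rich proteoglycans only Dcn and Fmod (3 and 43 UMIs) reached 20 UMIs, and both were higher in D. Of the fibroblast proteoglycans Bgn had 1 UMI in P and 0 in D, and Lum had 7 and 1. Of the metalloproteinase inhibitors, Timp2 (log2 ratio 1.84) was higher in D with Timp3, Timp1 was not past 2-fold at -0.84 and neither was Reck at 0.39. Of 8 Adamts proteases, with a median of 1.66, 6 were higher in D, among them Adamts6 (3.04), Adamts17 (2.13) and Adamts1 (1.83).

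In the SPARC family, with a median of 1.39, 4 of 5 genes with enough UMIs were higher in D, with Fstl1 (4.75) and Smoc1 (1.39) beside Sparc and Smoc2, and Spock2 stood at 0.17. With the gene median set to 0 only Sparc and Fstl1 of the 5 were past 2-fold, with Smoc1 at 0.97 and Smoc2 at 0.78. Of the R4 RGS proteins Rgs2 (2.33) was higher in D with Rgs5, and Rgs3 stood at 0.97. Emp1 (-1.61) was lower in D while its relative Emp3 was higher, and Emp2 stood at -0.36. Gas6, which like Mgp carries Gla residues, stood at -0.97, and Htra2 at -0.26. With the gene median set to 0, Gas6 (-1.39) and Timp1 (-1.27) passed 2-fold toward P. Of 6 neural adhesion genes, with a median of 1.94, 5 were higher in D, Ncam1, Alcam (2.01), L1cam (1.97), Cadm4 (1.91) and Mcam among them. Cadm1 stood at 0.61. In D cells with 3 or more of the 9 genes Alcam stood at 405 CPM, against 675 in cells with none. L1cam (14.9 and 40.0) and Cadm4 (16.3 and 43.7) were also lower there, while Cadm1 (196 and 85.3) and Mcam (14.1 and 1.63) were higher.

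Fibrous and adhesive matrix genes were mostly, but not all, higher in D. Of 12 with at least 20 UMIs, with a median of 1.62, 7 were at least 2-fold higher in D, namely Fn1 (4.67), Fbln5 (4.04), Ctgf (3.95), Col5a2 (0 UMIs in P and 22 in D), Cyr61 (2.86), Efemp1 (1.86) and Thbs1 (1.38), and 1, Fbln1, was higher in P (-4.94). Of 8 mesenchymal transition genes, with a median of 2.22, 5 were higher in D, led by Acta2 (5.30), Zeb1 (2 and 20 UMIs), Cdh2 (0 and 20 UMIs) and Tagln (8 and 35 UMIs), with S100a4 at 1.92. Zeb2 (-3.58) and Twist2 (-2.77) were higher in P, Snai2 stood at -0.33, and Twist1 and Prrx1 had 0 UMIs in both libraries. Genes of these 2 lists thus ran in both directions. With the gene median set to 0 the counts higher in D and in P were 6 and 2 for the fibrous and adhesive genes, 5 and 1 for the Adamts proteases and 4 and 0 for the neural adhesion genes, and those of the mesenchymal transition genes stayed at 5 and 2.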

How the data were processed

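Organoids were profiled with the 10x 3′ kit, 1 library for P and 1 for D. The authors deposited filtered matrices of raw UMI counts per gene and barcode, made with Cell Ranger 3.0.2 and bcl2fastq 2.19.0 against GRCm38/mm10 per the submitters' processing notes. Barcodes with over 800 genes and at most 12% mitochondrial counts were kept. Depth per library was 28921755 UMIs in 8194 P barcodes and 22949953 in 6975 D barcodes. Levels are summed counts per 1000000 UMIs (CPM) with exact Poisson intervals, ratios carry exact conditional binomial intervals and shares Clopper-Pearson intervals. The ratio intervals were tested on simulated counts. Clusters follow the study's settings in Seurat 5.3.0 under R 4.3.3 (2000 features without the 10 genes, 25 components in P and 21 in D, resolution 0.2). Python 3.11.15, NumPy 2.4.6, SciPy 1.17.1 and Scanpy 1.11.5 were used for the rest. Scrublet, as run in Scanpy, called 0 doublets in each library, so no cell was removed as one, and the 5% of cells with the most UMIs were left out as an alternative.

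The genes and lists were chosen with earlier results of these data known. Genes named beside them are the keratin and Epcam transcripts, list genes with at least 20 UMIs (those with the largest ratios, and defining markers at 0), the 3 genes most correlated with each member among genes with at least 200 UMIs (named in part) and the 10 with the largest ratio in cells with 3 or more of the 9 genes. Alternatives varied scaling, cell filters, thinning depth, the UMIs needed for a call and the clustering. Promoter windows came from RefSeq; Dcn, Smoc2, Mgp and Ncam1 had no entry.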

Additional observations from a re-analysis of the deposited data

Results flagged for a closer look

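The 2079 D barcodes that the filter left out, 1906 of them with over 12% mitochondrial transcripts, also held the 9 genes. Per 1000000 non-mitochondrial UMIs they had 585 UMIs of these genes (553 to 619), against 378 in kept D cells. The 1376 P barcodes that had failed the filter had 104 (90.7 to 120). The left-out D barcodes came from the same library as the kept ones, and the genes were chosen on the contrast between P and D. Their standing above P is therefore a description and no separate check. The genes did not move as one. Adamts18 stood at 82.1 in left-out and 31.1 in kept D barcodes, Ncam1 at 108 and 48.7, Htra1 at 188 and 109 and Rgs5 at 24.1 and 12.04, while Dcn stood at 43.4 and 65.4, Emp3 at 11.1 and 23.7 and Sparc at 29.4 and 38.7. The left-out D barcodes held 1 Mgp UMI. The part of RNA quality in these values was not tested.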

How the results depend on the processing

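No paired analysis was possible because each group held 1 library. No log2 ratio of the 10 genes, nor their median, changed sign under any alternative. Some relatives near 0 did with the gene median set to 0, such as Reck (0.39 to -0.03) and Spock2 (0.17 to -0.25). Over 8 alternatives the log2 ratios of the 10 genes stayed within their counting intervals in 68 of 80 values, and 7 to 9 genes were 2-fold higher in D. With the gene median set to 0 the median log2 ratio was 3.35. Shares of cells followed depth and the UMIs required. Without thinning 20.1% of P and 37.1% of D cells held 1 of the 10 genes and 12.7% of D cells held at least 3 of 9. At 1500 UMIs a cell these were 10.9% of P cells and 5.21%, and at 3000 UMIs 15.0% and 8.58%. Asking for 2 UMIs of a gene left 2.12% of P cells, 12.7% of D cells and 0.634%. Without cells with a stromal marker UMI the D share was 30.4%. The share of carriers with Krt5, Krt14 or Epcam was 100% in P with all barcodes, without the deepest 5% of cells, without stromal marker cells and without thinning, and 100% in both libraries at 3000 UMIs or with 2 UMIs of a gene. Cluster 1 held 82.7% of the D UMIs of the 9 genes with the genes left in the features and 85.5% without the deepest cells. The Krt14 shares, counts of 3 or more genes and list counts under scaling were added after the data were seen. Depth limits genes with few UMIs in P (Timp3, Adamts18, Rgs5), and 1 library a group leaves culture-to-culture spread unmeasured.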
